A study of Mus musculus with 18 samples.

Results

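Leukemic spleens of Idh2R140Q/NHD13 mice were compared with leukemic thymi of SCL/LMO1 mice over all genes of a mouse expression array. The first group had 9 arrays, each from the spleen of a mouse carrying an Idh2 allele that encodes the R140Q form of isocitrate dehydrogenase 2 together with the NHD13 (NUP98-HOXD13) transgene, labelled DN1/DN2 T-ALL after the 2 earliest CD4-CD8- stages of thymocyte development. The second had 6 arrays, each from the thymus of an SCL/LMO1 transgenic mouse, labelled cortical T-ALL of CD4+CD8+ cells and not DN1/DN2. Another 3 arrays were from thymi of healthy wild-type mice, which helped to estimate the spread and gave a level for thymus without leukemia. The arrays were chosen by their titles, 15 of 18 in all. Ages, promoters of the transgenes and pooling of animals are not given in the sources used here. Because one leukemia was sampled in spleen and the other in thymus, genotype, stage and tissue cannot be told apart, and whole tissue was used, so fewer cells of a type and less RNA per cell cannot be told apart either.

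T-cell acute lymphoblastic leukemia (T-ALL) arises when thymocyte precursors are arrested at a stage of their development and keep dividing. SCL (TAL1) and LMO1 are transcription regulators that are switched on abnormally in cortical-stage T-ALL, while NUP98-HOXD13 is a fusion protein that keeps HOX programmes on, and mutant IDH2 makes 2-hydroxyglutarate, which inhibits enzymes that use 2-oxoglutarate. A mouse spleen also makes red cells and platelets, holds macrophages that recycle iron, and holds B cells and granulocytes, whereas a thymus holds epithelium and stroma.

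Several samples stood apart before any gene was tested. The arrays of mice 546 and 550 were the closest pair, 0.212 log2 units apart as a root mean square over probe sets (the next pair, SCL/LMO1 mice 7114/3 and 7114/1, were 0.445 apart), and were counted as 1 sample, which left 8 spleens against 6 thymi. Spleen 555 held both Xist (log2 signal 9.53), the RNA of the inactive X chromosome, and Y-linked genes (mean 7.54, against 3.27 to 3.47 in the other spleens that expressed Xist). Its adipocyte marker mean was 10.04, against 5.34 to 5.88 in the other spleens and 7.22 to 9.25 in SCL/LMO1 thymi. Whether this array held RNA of more than 1 mouse or of other tissue was not tested, and the values of mouse 555 given here carry that doubt. Without it, 2743 genes were called higher and 2562 lower, and 7 of the called genes named here lost the call. SCL/LMO1 thymus 3767 had a thymic epithelium mean of 8.96. By Xist and Y-linked genes the wild-type mice were all female, and 4 of 8 Idh2R140Q/NHD13 samples and 5 of 6 SCL/LMO1 samples were male. Mouse 555 was counted as female, also where sex was a covariate, because its Xist signal exceeded its Y-linked mean, although it held both. Summed marker lists differed between the leukemias: the erythroid mean was 9.09 to 12.1 in Idh2R140Q/NHD13 spleens and 4.95 to 5.45 in SCL/LMO1 thymi, the megakaryocyte mean 8.64 to 10.6 and 5.96 to 6.30, the neutrophil mean 6.64 to 12.5 and 5.60 to 9.71, the macrophage mean 9.46 to 11.1 and 8.76 to 9.31, and the T-lineage mean 6.20 to 8.36 and 11.3 to 12.0. All 5 megakaryocyte, 9 of 10 erythroid, 6 of 9 neutrophil and 5 of 10 macrophage markers were called higher, beside 11.7% of all genes. Other lists did not rise: of 5 B cell markers 1 was called lower and none higher, and no thymic epithelium marker was called. The B cell mean was 5.07 to 5.93 in Idh2R140Q/NHD13 spleens and 5.10 to 7.54 in SCL/LMO1 thymi. The part of these cells in the differences described here was not tested.

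Of 20670 genes tested, 4901 (23.7%) passed an adjusted p of 0.05: 2411 (11.7%) were higher in Idh2R140Q/NHD13 spleens and 2490 (12.0%) were lower. A change of at least 2-fold (a difference of 1 on the log2 scale) was called for 1203 higher genes (5.82%) and 965 lower genes (4.67%). The median log2 difference over all genes was 0.03. Among the genes called at least 2-fold higher, the lowest spleen was mouse 555 for 301 genes, mouse 525 for 268 and mouse 524 for 245. Among those at least 2-fold lower, the highest spleen was mouse 524 for 364, mouse 555 for 191, mouse 526 for 121 and mouse 525 for 63. Mice 524 and 555 therefore held many of the values nearest to the SCL/LMO1 thymi in both directions, and mouse 525 mainly among the higher genes.

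Outside the T-lineage, progenitor and erythroid lists, the 15 largest rises held genes known from platelets, red cells and detoxification, alongside others. These and the 15 largest falls were taken only from genes whose groups did not overlap, so their separation is no result. Of all genes, 4.73% were higher in the spleens without overlap and 3.95% were lower. Where 3 values stand for a group, they are its lowest, median and highest log2 signal. Ppbp, a chemokine of platelet granules, is itself one of the megakaryocyte markers. It had 10.14, 11.10 and 12.56 in the Idh2R140Q/NHD13 spleens, against 3.67, 4.66 and 5.60 in the SCL/LMO1 thymi. Its log2 difference of 6.49 ± 0.55 (SE, adjusted p = 8.52e-07) was the largest. Tlcd4, a membrane protein with a TLC domain, had 7.20, 9.97 and 11.22 in Idh2R140Q/NHD13 spleens, against 3.02, 3.33 and 3.75 in SCL/LMO1 thymi, a difference of 6.24 ± 0.55 (adjusted p = 1.13e-06). Spleens 555 and 524 were the 2 lowest for Tlcd4 and also had the 2 lowest erythroid marker means (9.09 and 10.10). The part of erythroid cells in this was not tested. Apol8, of the apolipoprotein L family, had 5.94, 10.21 and 11.36 in the Idh2R140Q/NHD13 spleens, against 3.60, 3.92 and 4.07 in the SCL/LMO1 thymi (difference 5.84 ± 0.68, adjusted p = 1.84e-05). Coch, which encodes the extracellular matrix protein cochlin, had 8.38, 9.82 and 12.12 in Idh2R140Q/NHD13 spleens, against 4.30, 4.73 and 5.23 in SCL/LMO1 thymi (difference 5.18 ± 0.41, adjusted p = 4.14e-07). For Apol8 the spleens ranged widely.

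Tspan33, a tetraspanin known from erythroid progenitors, had 9.34, 11.53 and 12.42 in the Idh2R140Q/NHD13 spleens, against 5.45, 6.32 and 6.45 in the SCL/LMO1 thymi and differed by 5.05 ± 0.47 (adjusted p = 1.97e-06). Blvrb, which reduces biliverdin and flavins in red cells, had 9.64, 12.73 and 13.47 in Idh2R140Q/NHD13 spleens, against 7.01, 7.47 and 7.87 in SCL/LMO1 thymi and differed by 4.83 ± 0.51 (adjusted p = 7.45e-06). Rgs18, a brake on G protein signalling in platelets, had 7.93, 9.16 and 11.70 in the Idh2R140Q/NHD13 spleens, against 4.21, 4.54 and 5.61 in the SCL/LMO1 thymi and differed by 4.81 ± 0.49 (adjusted p = 4.54e-06). The remaining large rises were the amino acid transporter Slc38a5 (5.01 ± 0.66), the cytoskeletal protein Specc1 (4.64 ± 0.51), the magnesium transporter Nipa1 (4.62 ± 0.49), the disulfide isomerase Pdia2 (4.56 ± 0.70), Tmem40 (4.54 ± 0.35), the aldehyde dehydrogenase Aldh1a7 (4.47 ± 0.74), the glutathione transferase Gstm5 (4.36 ± 0.69) and the myosin light chain kinase Mylk3 (4.33 ± 0.67), all with adjusted p-values from 3.33e-07 to 0.000437. Aldh1a7 and Gstm5 stood out by their wild-type level: their wild-type means of 10.10 and 8.79 lay within the range of the spleens, so the SCL/LMO1 thymi were the low group for these genes. For 6 of the 15 genes the wild-type mean was within or below the SCL/LMO1 range, and for 7 it was between the leukemias.

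The 15 largest falls also differed in their wild-type level. Bst1, an ectoenzyme that cleaves NAD, had 4.14, 4.55 and 5.68 in Idh2R140Q/NHD13 spleens, against 10.79, 11.34 and 12.03 in SCL/LMO1 thymi, a difference of -6.65 ± 0.33 (adjusted p = 2.30e-09). Myrfl, a relative of the myelin regulatory factor, had 4.29, 4.53 and 4.82 in the Idh2R140Q/NHD13 spleens, against 8.30, 9.04 and 9.77 in the SCL/LMO1 thymi, a difference of -4.47 ± 0.20 (adjusted p = 9.34e-10), and its wild-type mean was 4.44. Sidt1, of a family that transports RNA across membranes in worms, had 5.06, 5.20 and 5.44 in Idh2R140Q/NHD13 spleens, against 8.99, 9.47 and 10.71 in SCL/LMO1 thymi, a difference of -4.47 ± 0.22 (adjusted p = 2.30e-09), with a wild-type mean of 6.00. These genes were bright in each SCL/LMO1 thymus and dim in every spleen, and their lack of overlap was a condition of the choice. The wild-type mean lay within the range of the spleens or below it for 5 of the 15 genes: Myrfl, Wdr25 (difference -4.44 ± 0.24), the phosphoinositide-binding Clvs1 (-4.13 ± 0.28), the phospholipid flippase Atp8a2 (-4.08 ± 0.36) and the protease granzyme A, Gzma (-4.77 ± 0.89), whose spleens alone ranged from 4.73 to 12.13. For Gzma only mice 524 (11.32) and 555 (12.13) were as high as the wild-type mean of 11.10.

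For 4 of the 15 falls the wild-type thymi were instead within or above the SCL/LMO1 range, so the spleens were the low group. Ikzf3 encodes Aiolos, a zinc finger factor of lymphocytes. It had 4.90, 5.90 and 8.97 in the Idh2R140Q/NHD13 spleens, against 9.48, 10.91 and 11.54 in the SCL/LMO1 thymi, a difference of -4.18 ± 0.59 (adjusted p = 0.000106), with a wild-type mean of 9.94. Slc16a5, of the monocarboxylate transporter family, had 4.17, 4.42 and 7.24 in Idh2R140Q/NHD13 spleens, against 9.58, 9.81 and 10.50 in SCL/LMO1 thymi (difference -4.88 ± 0.48, adjusted p = 3.66e-06). For both genes a pair of spleens was higher than the rest. The other 2 were Nsg2, a protein of neuronal vesicle traffic (-4.81 ± 0.44), and the chemokine Ccl8 (-5.47 ± 0.47). Trib2, a pseudokinase and a target of Notch in T-ALL, had 6.21, 7.17 and 9.66 in the Idh2R140Q/NHD13 spleens, against 12.06, 12.60 and 12.71 in the SCL/LMO1 thymi, with a difference of -5.07 ± 0.41 (adjusted p = 5.70e-07) and a wild-type mean of 10.21. It lay between the leukemias in wild-type thymus, as did Bst1, Sidt1, the scavenger receptor Scara3 (-5.66 ± 0.36), the arylsulfatase Arsi (-4.56 ± 0.21) and the AMP deaminase Ampd1 (-4.17 ± 0.35).

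**Figure D1:**
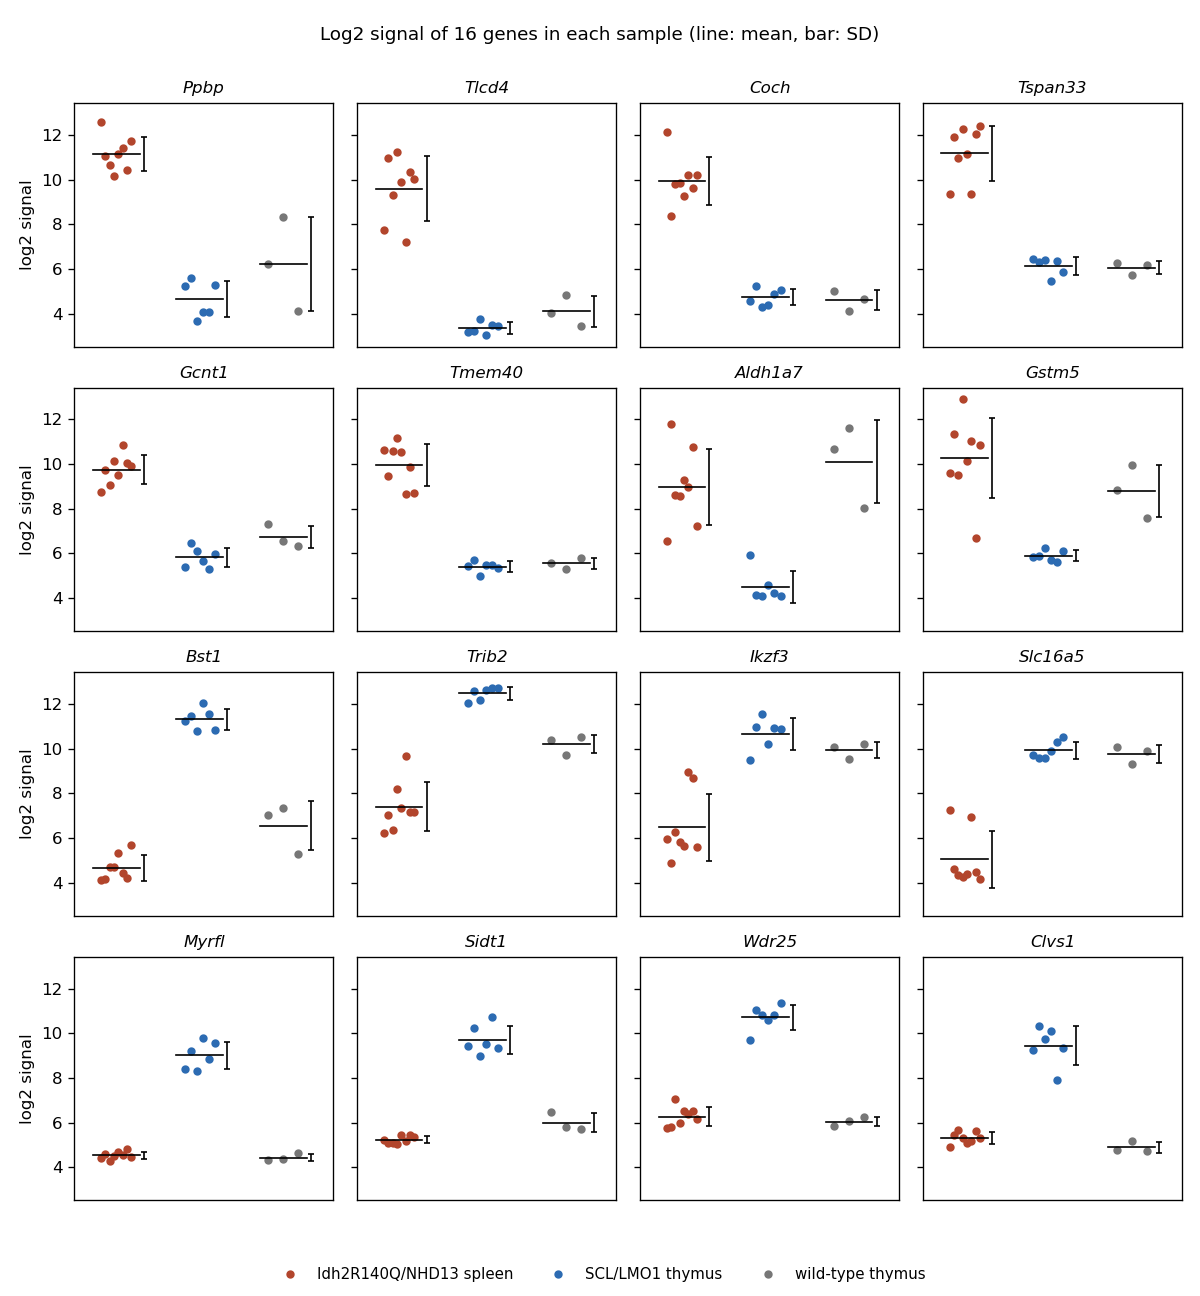
Log2 signal (y axis) of 16 genes in each of 8 Idh2R140Q/NHD13 spleens, 6 SCL/LMO1 thymi and 3 wild-type thymi; each point is a sample, lines are group means and bars are SD. The upper 8 genes are bright in the spleens and the lower 8 in the SCL/LMO1 thymi, and wild-type points sit with the spleens for Aldh1a7, Myrfl, Wdr25 and Clvs1.

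Genes were then read by process, in 34 lists described by how many members passed the same test. Each count is to be read beside the share of all genes, 11.7% higher and 12.0% lower. A wild-type level is not given for each gene below, so a difference does not say which leukemia departed from wild-type thymus. The redox genes moved most evenly: of 27 measured members of the list for glutathione and redox defence, 16 were higher, none was lower, and the median difference was 0.87, beside 11.7% higher, 12.0% lower and a median of 0.03 over all genes. Glutathione is made by the glutamate-cysteine ligase, a dimer of Gclc and Gclm, and is then used by peroxidases and transferases and restored by a reductase. Many of these genes are known targets of the factor Nrf2 (Nfe2l2), which binds antioxidant response elements. Gclm, Gstm5 and Nfe2l2 itself are shown by their promoters because they are a ligase subunit, a transferase and the factor of this pathway, and because their windows hold the letters TGACNNNGC, the core of that element. The windows run from 250 bases before to 50 after the start of the gene as listed by RefSeq on GRCm38.p6. Capitals mark the match on either strand, at Gclm on chr3:122245307-122245606 (plus strand), Gstm5 on chr3:107895604-107895903 (plus strand) and Nfe2l2 on chr2:75704614-75704913 (minus strand).
Gclm: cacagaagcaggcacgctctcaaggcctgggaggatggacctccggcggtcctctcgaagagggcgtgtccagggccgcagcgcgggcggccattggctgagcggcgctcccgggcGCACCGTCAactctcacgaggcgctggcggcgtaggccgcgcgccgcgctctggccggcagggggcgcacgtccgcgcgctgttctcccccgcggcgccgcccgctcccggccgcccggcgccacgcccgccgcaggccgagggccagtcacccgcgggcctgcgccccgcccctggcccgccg
Gstm5: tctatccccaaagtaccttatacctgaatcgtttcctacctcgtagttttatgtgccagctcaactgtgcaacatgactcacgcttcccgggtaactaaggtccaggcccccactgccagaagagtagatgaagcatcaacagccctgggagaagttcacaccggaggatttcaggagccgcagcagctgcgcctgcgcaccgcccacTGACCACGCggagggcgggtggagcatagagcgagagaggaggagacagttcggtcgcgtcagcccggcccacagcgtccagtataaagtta
Nfe2l2: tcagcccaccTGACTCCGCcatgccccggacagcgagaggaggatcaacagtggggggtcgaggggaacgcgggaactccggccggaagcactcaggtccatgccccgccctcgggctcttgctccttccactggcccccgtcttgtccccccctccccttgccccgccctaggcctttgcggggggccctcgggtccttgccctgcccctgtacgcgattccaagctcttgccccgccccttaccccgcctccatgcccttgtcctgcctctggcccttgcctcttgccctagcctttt
These letters were in 7 of 24 redox promoters that had a sequence (29.2%) and in 14.3% of all 14516 promoters; 4 of the 7 belonged to genes called higher, as did 13 of all 24. A match is a description of the sequence alone.

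Both ligase subunits and several enzymes that use glutathione were higher in the spleens. Gclm, the modifier subunit, had 10.79, 12.12 and 12.56 in Idh2R140Q/NHD13 spleens, against 7.60, 8.17 and 8.82 in SCL/LMO1 thymi. It differed by 3.74 ± 0.30 (adjusted p = 4.14e-07), and Gclc, the catalytic subunit, by 1.47 ± 0.25. No spleen reached down to a thymus for Gclm. Gpx1, a peroxidase of the cytosol, had 13.17, 13.90 and 14.15 in the Idh2R140Q/NHD13 spleens, against 12.35, 12.42 and 12.66 in the SCL/LMO1 thymi and differed by 1.41 ± 0.15 (adjusted p = 8.91e-06). Gsto1, an omega-class transferase, had 10.70, 11.26 and 11.96 in Idh2R140Q/NHD13 spleens, against 7.52, 8.87 and 10.04 in SCL/LMO1 thymi and differed by 2.44 ± 0.33 (adjusted p = 7.34e-05). Both were separated without overlap. Gstm5 had the widest range among the spleens, with 6.71, 10.48 and 12.92 in the Idh2R140Q/NHD13 spleens, against 5.62, 5.86 and 6.25 in the SCL/LMO1 thymi, and spleen 559 was the low one. Nqo1, a quinone reductase and a classical Nrf2 target, had 6.97, 8.28 and 9.46 in Idh2R140Q/NHD13 spleens, against 4.97, 5.29 and 6.63 in SCL/LMO1 thymi and differed by 2.75 ± 0.34 (adjusted p = 3.11e-05). Every spleen was above every SCL/LMO1 thymus, but the wild-type mean of Nqo1 was 7.52, within the range of the spleens. The other 10 called members also rose: Txnrd2, the mitochondrial thioredoxin reductase, by 2.19, the glutathione reductase Gsr by 1.70, and Sod2, Prdx2, Prdx6, Gss, Gpx4, Nfe2l2 and Sod1 by 1.10 to 0.49, while the Nrf2 inhibitor Keap1 was higher by 0.31. The calls of Gss and Keap1 were narrow: they ended without any of 9 (Gss) or any of 11 (Keap1) of the 14 samples, with adjusted p-values of 0.0527 to 0.0956 and 0.0564 to 0.117. The erythroid and macrophage marker means were higher in the same samples.

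Iron genes, many of them expressed by red cell precursors and by macrophages that recycle red cells, rose more often than they fell: 10 of 21 were higher, 2 were lower and the median was 0.76. Fth1, the ferritin heavy chain that stores iron, had 13.72, 13.89 and 14.07 in the Idh2R140Q/NHD13 spleens, against 12.50, 12.72 and 13.04 in the SCL/LMO1 thymi and differed by 1.17 ± 0.10 (adjusted p = 1.12e-06). Slc11a1, a metal transporter of phagocyte vesicles, had 7.68, 8.54 and 9.66 in Idh2R140Q/NHD13 spleens, against 5.72, 5.90 and 6.01 in SCL/LMO1 thymi and differed by 2.60 ± 0.28 (adjusted p = 8.47e-06). The groups were disjoint for both. The 2 members that fell were Fbxl5 and Ireb2: Fbxl5, the iron-sensing part of the ligase that degrades iron regulatory proteins, fell by 0.89 and Ireb2, one of those proteins, fell by 0.26. Aco1, which also acts as an iron regulatory protein, rose (0.79 ± 0.28, adjusted p = 0.048), a call that ended without any of 10 of the 14 samples (adjusted p = 0.0518 to 0.101). Fbxl5 had 9.21, 9.28 and 9.89 in the Idh2R140Q/NHD13 spleens, against 10.01, 10.28 and 10.66 in the SCL/LMO1 thymi (adjusted p = 0.000184), again without overlap, but the call of Ireb2 ended when any of 9 of the 14 samples was left out (adjusted p = 0.0519 to 0.101). The iron exporter Slc40a1 (3.11 ± 0.29), the haem oxygenase Hmox1 (2.70 ± 0.28) and the haemoglobin scavenger receptor Cd163 (2.76 ± 0.39) rose, 2 of which are also in the macrophage marker list. Lcn2, a siderophore-binding protein of neutrophils, was not called and ranged from 4.87 to 11.52 among the spleens.

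**Figure D2:**
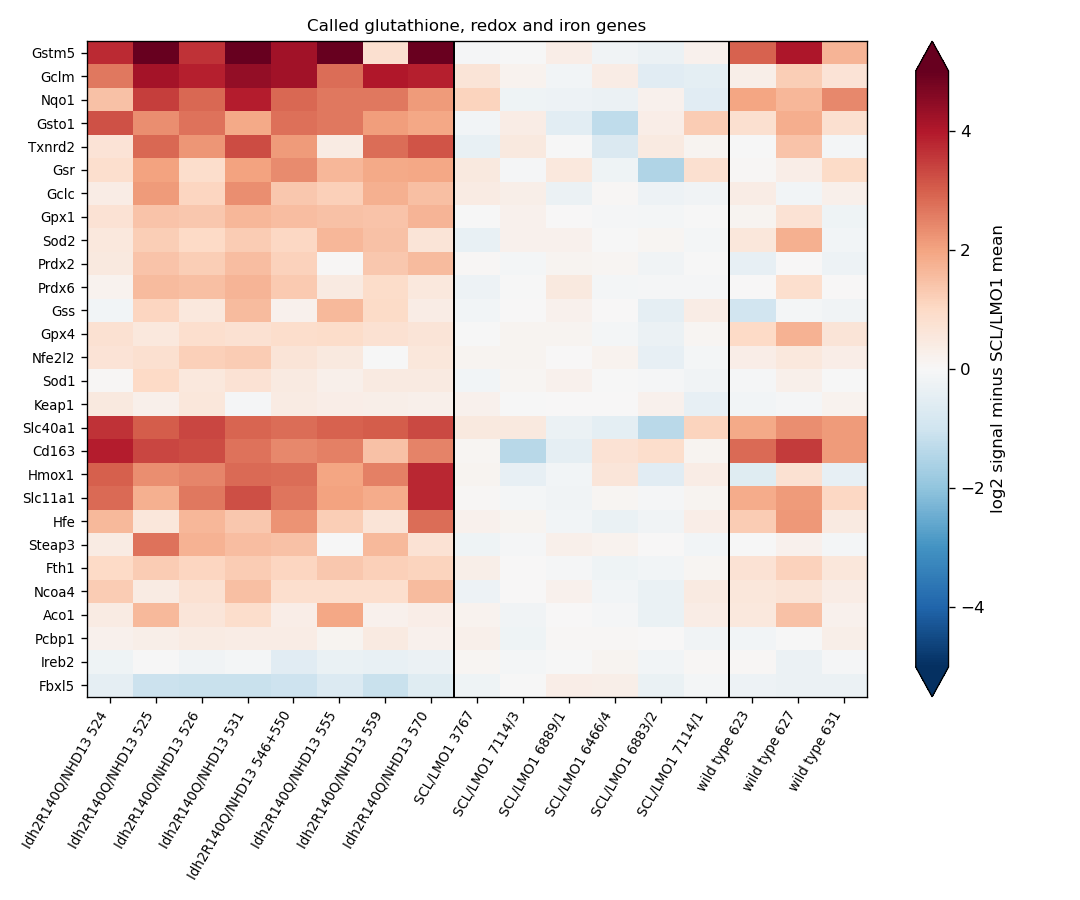
Log2 signal minus the SCL/LMO1 mean for the called genes of the redox list (Gstm5 to Keap1) and of the iron list (Slc40a1 to Fbxl5), in each Idh2R140Q/NHD13, SCL/LMO1 and wild-type sample; the colour scale ends at 5 in both directions. Most spleens are above the SCL/LMO1 mean for the redox genes, spleen 559 is the palest for Gstm5, and Fbxl5 is lower in all spleens.

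Enzymes of glucose, nucleotide and lipid metabolism moved in both directions, in some cases with isoforms of 1 enzyme on opposite sides. Glycolysis had 5 members higher and 4 lower of 27 (18.5% and 14.8%, beside 11.7% and 12.0% of all genes), with a median of 0.03. Pklr, the pyruvate kinase of red cells and liver, had 6.64, 8.43 and 10.27 in Idh2R140Q/NHD13 spleens, against 4.83, 5.04 and 5.65 in SCL/LMO1 thymi and differed by 3.19 ± 0.47 (adjusted p = 0.000175), while Pkm, the form of most other tissues, had 8.72, 10.24 and 10.82 in the Idh2R140Q/NHD13 spleens, against 10.98, 11.36 and 12.00 in the SCL/LMO1 thymi and differed by -1.31 ± 0.28 (adjusted p = 0.00256). The pair thus differed in opposite directions, each without overlap. The wild-type mean of Pkm was 10.24, within the range of the spleens, so the SCL/LMO1 thymi were the high group for it. Hk1, the hexokinase of red cells and brain, had 11.16, 11.55 and 12.02 in Idh2R140Q/NHD13 spleens, against 8.89, 9.29 and 9.83 in SCL/LMO1 thymi and differed by 2.21 ± 0.18 (adjusted p = 4.44e-07). Ldhb, a lactate dehydrogenase subunit, had 7.29, 7.65 and 12.39 in the Idh2R140Q/NHD13 spleens, against 10.97, 11.71 and 12.36 in the SCL/LMO1 thymi and differed by -3.33 ± 0.64 (adjusted p = 0.00129). Hk1 was disjoint, whereas 1 spleen, mouse 555, was as high in Ldhb as the thymi.

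Nucleotide salvage had 8 of 30 members higher and 2 lower. Ada, the adenosine deaminase that developing T cells depend on, had 7.26, 8.14 and 9.81 in Idh2R140Q/NHD13 spleens, against 10.13, 10.25 and 10.99 in SCL/LMO1 thymi and differed by -2.11 ± 0.31 (adjusted p = 0.00016). Pnp, the next enzyme in purine breakdown, went the other way with 11.88, 12.76 and 13.34 in the Idh2R140Q/NHD13 spleens, against 10.58, 10.95 and 11.73 in the SCL/LMO1 thymi, a difference of 1.56 ± 0.24 (adjusted p = 0.000206). Neither overlapped. Nt5c3, a pyrimidine nucleotidase of red cells (1.71 ± 0.24), Samhd1, which degrades deoxynucleotides (1.98 ± 0.35), and the cytidine deaminase Cda (3.01 ± 0.69) were also higher. The wild-type mean of Samhd1 was 9.44, within the range of the spleens (8.63 to 11.20). Among amino acid genes 6 of 30 were higher and 4 lower (2 without SCL/LMO1 mouse 7114/1). Bcat1, the cytosolic branched-chain transaminase that uses 2-oxoglutarate, had 3.67, 3.84 and 6.18 in Idh2R140Q/NHD13 spleens, against 6.41, 7.94 and 8.42 in SCL/LMO1 thymi and differed by -3.61 ± 0.39 (adjusted p = 1.02e-05). It was dim in 7 spleens and lower in all 8 than in any SCL/LMO1 thymus. The transporter chain Slc3a2 (1.21 ± 0.20) and the polyamine enzyme Odc1 (1.23 ± 0.22) rose. Asns, which makes asparagine, was not called and ranged from 6.48 to 13.02 among the spleens and from 6.46 to 10.08 among the SCL/LMO1 thymi.

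In the fatty acid list 6 of 23 genes were higher and 2 lower. The desaturase Fads2 (1.89 ± 0.32), the elongase Elovl1 (0.96 ± 0.16) and the mitochondrial dehydrogenase Acadl (1.67 ± 0.31) rose, and the elongase Elovl5 (-1.23 ± 0.24) fell. For Acadl the wild-type mean was 11.78, within the range of the spleens (10.90 to 12.27). Cholesterol genes had 1 higher and 5 lower of 25 (median -0.32), a count that was 1 to 3 when any of spleens 525, 531, 546 with 550 and 570 or of thymi 3767, 7114/3, 6889/1, 6466/4 and 6883/2 was left out. Insig2, which retains the sterol sensor in the endoplasmic reticulum, had 8.28, 8.69 and 9.37 in the Idh2R140Q/NHD13 spleens, against 9.51, 10.18 and 11.24 in the SCL/LMO1 thymi and differed by -1.51 ± 0.24 (adjusted p = 0.000336), without overlap. Fdps, a farnesyl diphosphate synthase, was the one that rose (0.70 ± 0.18). The hypoxia list had 2 higher and 5 lower of 25, and its called members included the 2-oxoglutarate-dependent enzymes Kdm3a, a histone demethylase (-0.95 ± 0.16), and P4ha2, a prolyl hydroxylase of collagen (-2.69 ± 0.51). Kdm3a had 9.90, 10.28 and 10.91 in Idh2R140Q/NHD13 spleens, against 11.11, 11.28 and 11.65 in SCL/LMO1 thymi. Its groups did not overlap.

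Enzymes that build glycans were another group with many rises: 15 of 41 glycosyltransferases and sulfotransferases were higher and 3 were lower (6 without mouse 524). Gcnt1 makes core 2 O-glycans, the branch that carries selectin ligands. It had 8.75, 9.82 and 10.86 in the Idh2R140Q/NHD13 spleens, against 5.33, 5.82 and 6.47 in the SCL/LMO1 thymi and differed by 3.93 ± 0.29 (adjusted p = 2.19e-07). St3gal4 and St3gal6 add the sialic acid of selectin ligands. St3gal4 had 7.61, 8.81 and 9.21 in Idh2R140Q/NHD13 spleens, against 5.92, 6.19 and 6.72 in SCL/LMO1 thymi (difference 2.47 ± 0.25, adjusted p = 5.37e-06). St3gal6 had 8.15, 9.31 and 10.01 in the Idh2R140Q/NHD13 spleens, against 5.88, 6.39 and 7.60 in the SCL/LMO1 thymi (difference 2.75 ± 0.31, adjusted p = 1.45e-05). The spleens lay above the SCL/LMO1 thymi without overlap for all 3 enzymes. Galnt3, which starts O-glycans, rose by 2.42 ± 0.27, and Galnt12 of the same family fell by 2.16. The other lower genes were St8sia1 (-2.87 ± 0.65), which makes disialogangliosides, and the Notch glycosyltransferase Mfng (-1.17 ± 0.27).

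Adhesion receptors had 12 of 40 higher and 4 lower, with the count of higher genes falling to 7 without SCL/LMO1 mouse 6466/4. Cd9, a tetraspanin of platelets and progenitors, had 9.15, 10.51 and 10.71 in Idh2R140Q/NHD13 spleens, against 7.57, 8.17 and 8.74 in SCL/LMO1 thymi and differed by 2.07 ± 0.27 (adjusted p = 5.41e-05). Cd47, the signal that restrains phagocytosis, had 12.00, 13.01 and 13.20 in the Idh2R140Q/NHD13 spleens, against 11.23, 11.42 and 12.18 in the SCL/LMO1 thymi and differed by 1.34 ± 0.19 (adjusted p = 0.000113). Cd9 was disjoint between the leukemias and Cd47 overlapped in 1 spleen. The wild-type means of Cd9 (9.72) and Cd47 (12.29) lay within the range of the spleens. Selp, the P-selectin of platelets and endothelium (2.16 ± 0.36), and the fibronectin receptor chain Itga5 (1.13 ± 0.18) rose, and Icam2 (-0.94 ± 0.21) fell. Itgb8 was dim in most spleens, with a median of 3.24, but reached 10.29 in 1 of them and was not called.

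Chemokines were near the share of all genes, with 4 higher and 4 lower of 31 (12.9% each, beside 11.7% and 12.0%). Besides Ppbp, the platelet chemokine Pf4 (2.64 ± 0.45) rose. Ccl12 (-2.64 ± 0.45) fell beside Ccl8, and both are ligands for monocytes. Chemokine and sphingosine receptors had 8 higher and 3 lower of 28; the higher count was 5 with sex as a covariate, and the lower count was 5 without mouse 570. Ccr3, the eotaxin receptor of eosinophils and basophils, had 5.04, 6.96 and 7.76 in Idh2R140Q/NHD13 spleens, against 3.66, 3.70 and 3.87 in SCL/LMO1 thymi and differed by 3.14 ± 0.31 (adjusted p = 4.29e-06). Ackr3, a scavenger receptor for Cxcl12, had 8.68, 9.88 and 10.74 in the Idh2R140Q/NHD13 spleens, against 6.04, 6.50 and 6.95 in the SCL/LMO1 thymi and differed by 3.34 ± 0.39 (adjusted p = 2.21e-05). Ccr4, a receptor of maturing thymocytes, was low in both, with 3.95, 4.15 and 4.34 in Idh2R140Q/NHD13 spleens, against 4.40, 4.89 and 5.32 in SCL/LMO1 thymi (difference -0.72 ± 0.12). The leukemias did not overlap for these 3 genes. The wild-type mean of Ackr3 was 9.00, within the range of the spleens, so the SCL/LMO1 thymi were the low group for it.

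Cytokine receptors were balanced, with 7 higher and 7 lower of 39 (17.9% each, beside 11.7% and 12.0% of all genes). Il10rb (1.38 ± 0.22) and the macrophage growth factor receptor Csf1r (1.38 ± 0.31) rose. Their wild-type means (9.72 and 11.73) lay within the range of the spleens. Il6st, the shared gp130 chain (-1.27 ± 0.25), and Il12rb2 (-0.83 ± 0.14) fell. Il2ra, the alpha chain of the interleukin-2 receptor and a marker of DN2 and DN3 cells, had 5.39, 6.76 and 11.60 in the Idh2R140Q/NHD13 spleens, against 7.12, 11.77 and 12.66 in the SCL/LMO1 thymi. The groups overlapped widely, with 4 of 8 spleens inside the range of the thymi and 3 of 6 thymi inside that of the spleens, and the difference was -3.18 ± 1.10 (adjusted p = 0.0471). Without any of 10 of the 14 samples the adjusted p was 0.0612 to 0.109. In the TNF family 3 of 34 were higher and 2 lower, below the share over all genes. The death receptor Fas had 5.37, 5.72 and 6.60 in Idh2R140Q/NHD13 spleens, against 6.42, 7.09 and 8.21 in SCL/LMO1 thymi and differed by -1.33 ± 0.26 (adjusted p = 0.0017), with a wild-type mean of 9.24, above both leukemias. Tnfrsf21 (1.98 ± 0.44) and Tnfsf14 (1.22 ± 0.27) rose.

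Genes of the type I interferon response were higher in 13 of 29 cases and lower in 1, with a median of 1.01. Rsad2 (viperin), an antiviral enzyme, had 10.21, 12.12 and 14.11 in the Idh2R140Q/NHD13 spleens, against 7.64, 8.36 and 8.61 in the SCL/LMO1 thymi and differed by 3.94 ± 0.56 (adjusted p = 0.000126). Irf9, the DNA-binding part of the factor that interferon activates, had 7.90, 8.57 and 10.14 in Idh2R140Q/NHD13 spleens, against 6.94, 7.41 and 7.83 in SCL/LMO1 thymi and differed by 1.25 ± 0.30 (adjusted p = 0.00674). Both were above the SCL/LMO1 thymi in every spleen, but the wild-type mean of Irf9 was 8.37, within the range of the spleens. Isg20 (2.75 ± 0.40), Ifi35 (0.92 ± 0.20) and Usp18 (1.92 ± 0.50) were among the others, and Ifit2 fell by 1.04, a call that ended without any of 10 of the 14 samples (adjusted p = 0.0559 to 0.0978). The wild-type mean of Isg20 was 10.95 and that of Ifi35 11.33, both within the spleens' range, so the SCL/LMO1 thymi were the low group for them. Oasl2 was not called and ranged from 4.17 to 10.17 among the spleens.

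Heavy chains of MHC class I were higher in the spleens by their brightest probe sets. H2-D1 had 11.64, 13.02 and 13.59 in the Idh2R140Q/NHD13 spleens, against 9.16, 9.71 and 10.27 in the SCL/LMO1 thymi and differed by 3.23 ± 0.26 (adjusted p = 4.94e-07), with a wild-type mean of 12.96. H2-K1 had 11.51, 12.68 and 13.66 in Idh2R140Q/NHD13 spleens, against 10.76, 11.33 and 11.67 in SCL/LMO1 thymi and differed by 1.48 ± 0.27 (adjusted p = 0.000894), with a wild-type mean of 13.24. Another probe set of H2-D1 was lower by 1.99, and as the mean of its probe sets H2-D1 was not called (adjusted p = 0.287). By its brightest probe set H2-D1 was disjoint, and H2-K1 overlapped in its lowest spleen. Class I genes have near-identical copies, so their probe sets may read more than one of them. In all 4 of 17 members of the presentation list were higher and 2 lower, the second pair being the peptide trimmer Erap1 (-0.72 ± 0.14) and the proteasome subunit Psmb10 (-0.67 ± 0.16). Innate receptors had 7 of 32 higher and none lower, led by the C-type lectins Clec4d (2.72 ± 0.46) and Clec4e (3.60 ± 0.66), which myeloid cells express, with the adaptor Myd88 (0.65 ± 0.12) and Trem1 (0.87 ± 0.21). The macrophage mean was higher in every spleen than in any SCL/LMO1 thymus, but wild-type thymi had 9.38 to 10.15, within the range of the spleens or just below it. The neutrophil mean overlapped between the leukemias, at 6.64 in spleen 559 and 9.71 in thymus 7114/3. Their part was not tested.

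Signalling genes went both ways, and the members that fell included brakes of the RAS and MAPK pathways. Of 41 RAS-MAPK regulators 6 were higher and 9 lower (median 0.06). Dusp10, a phosphatase of p38 and JNK, had 5.59, 7.0 and 7.91 in the Idh2R140Q/NHD13 spleens, against 9.99, 10.42 and 11.58 in the SCL/LMO1 thymi and differed by -3.60 ± 0.33 (adjusted p = 1.88e-06). Rasal1 and Rasa2 are GTPase-activating proteins that switch RAS off. Rasal1 had 6.44, 6.75 and 7.32 in Idh2R140Q/NHD13 spleens, against 8.13, 9.33 and 10.21 in SCL/LMO1 thymi (difference -2.51 ± 0.26, adjusted p = 5.67e-06). Rasa2 had 8.62, 9.38 and 10.25 in the Idh2R140Q/NHD13 spleens, against 10.80, 10.98 and 11.29 in the SCL/LMO1 thymi (difference -1.54 ± 0.25, adjusted p = 0.000312). All 3 were disjoint between the groups. A related protein, Rasa3, went the other way with 9.01, 9.81 and 10.63 in Idh2R140Q/NHD13 spleens, against 7.75, 8.58 and 8.96 in SCL/LMO1 thymi, a difference of 1.30 ± 0.25 (adjusted p = 0.00127). The wild-type mean of Rasa3 was 9.40, within the range of the spleens. The phosphatase Dusp4 (-3.24 ± 0.53) and the GTPase Rras2 (-2.54 ± 0.60) fell, and both overlapped.

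In the PI3K pathway 7 of 38 were higher and 11 lower (median -0.22), and subunits of the lipid kinase moved in opposite directions. Pik3cb, the p110 beta catalytic subunit that platelets use, had 6.75, 7.67 and 8.48 in the Idh2R140Q/NHD13 spleens, against 4.99, 5.39 and 5.45 in the SCL/LMO1 thymi and differed by 2.25 ± 0.26 (adjusted p = 2.06e-05). Pik3cg, the p110 gamma subunit of leukocytes, had 7.16, 7.63 and 8.93 in Idh2R140Q/NHD13 spleens, against 9.06, 9.54 and 9.96 in SCL/LMO1 thymi and differed by -1.69 ± 0.27 (adjusted p = 0.000277), and Pik3r5, its regulatory partner, had 5.82, 6.44 and 8.35 in the Idh2R140Q/NHD13 spleens, against 8.86, 9.35 and 9.60 in the SCL/LMO1 thymi and differed by -2.42 ± 0.35 (adjusted p = 0.000145). No group overlapped for these 3 genes. Foxo1 (-1.76 ± 0.32) fell and Foxo3 (0.84 ± 0.16) rose, both factors that AKT restrains, and Eif4ebp1, a translation repressor below mTOR, rose by 2.69. Pdpk1, the kinase that activates AKT, fell by 0.58.

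cAMP and prostaglandin genes had 13 of 41 higher and 3 lower (6 without mouse 524). Besides Rgs18 these held the prostaglandin receptors Ptger3 (2.89 ± 0.56), Ptger2 (2.66 ± 0.45) and Ptgir (2.32 ± 0.36) and the cyclooxygenase Ptgs1, which platelets use to make thromboxane. Ptgs1 had 8.09, 8.67 and 9.65 in Idh2R140Q/NHD13 spleens, against 6.03, 6.69 and 7.35 in SCL/LMO1 thymi and differed by 1.92 ± 0.27 (adjusted p = 9.70e-05). Creb1, the factor that cAMP activates, had 10.47, 10.79 and 11.17 in the Idh2R140Q/NHD13 spleens, against 11.64, 11.81 and 12.10 in the SCL/LMO1 thymi and differed by -1.05 ± 0.14 (adjusted p = 7.08e-05). Rgs10 had 9.27, 10.26 and 10.89 in Idh2R140Q/NHD13 spleens, against 11.55, 12.01 and 12.22 in SCL/LMO1 thymi and differed by -1.73 ± 0.24 (adjusted p = 8.02e-05). These 3 genes were separated without overlap, 1 up and 2 down. Calcium genes had 9 higher and 11 lower of 44. Ppp3ca, the catalytic calcineurin subunit A alpha (2.19 ± 0.22), the receptor Calcrl (1.55 ± 0.18) and the calcium pump Atp2b4 (1.67 ± 0.20) rose. The wild-type mean of Calcrl (9.77) lay at the lower end of the range of the spleens (9.76 to 10.80). The channel subunit Cacnb3 (-1.82 ± 0.19) and the calcium release channel Itpr2 (-2.53 ± 0.53) fell.

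**Figure D3:**
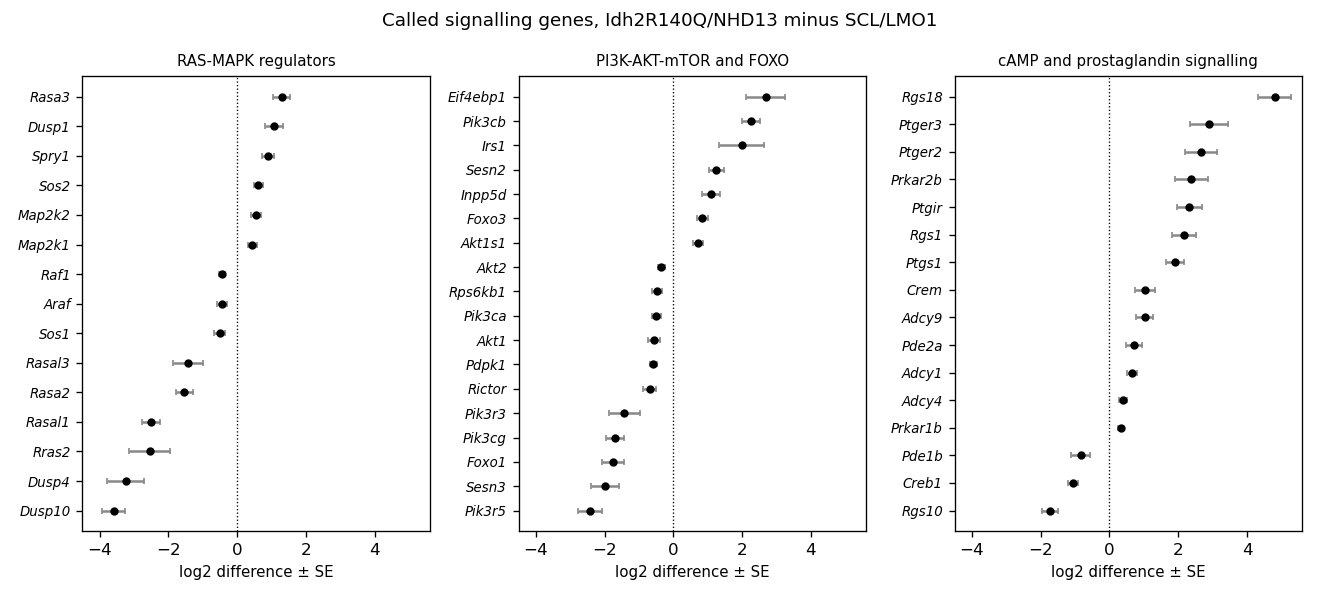
Log2 difference (Idh2R140Q/NHD13 minus SCL/LMO1, x axis) with its SE for each called gene of 3 signalling lists. Dusp10 is the lowest point among RAS-MAPK regulators, Pik3cb and Pik3r5 lie on opposite sides of 0, and Rgs18 is the highest point of the cAMP list.

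Wnt genes were at the share of all genes, with 5 higher and 5 lower of 43; 8 were lower without mouse 555. Axin2, a feedback target of the pathway, had 6.38, 7.22 and 8.04 in the Idh2R140Q/NHD13 spleens, against 8.33, 8.97 and 9.53 in the SCL/LMO1 thymi and differed by -1.82 ± 0.24 (adjusted p = 6.01e-05). Wnt5b had 4.64, 5.01 and 6.31 in Idh2R140Q/NHD13 spleens, against 7.22, 8.10 and 8.58 in SCL/LMO1 thymi and differed by -2.72 ± 0.30 (adjusted p = 1.14e-05). The kinase Gsk3b fell by 1.23 and the factor Tcf7l2 rose by 1.67, and none of the 4 overlapped. The wild-type mean of Tcf7l2 was 7.05, within the range of the spleens (6.59 to 8.71). Of 40 TGF-beta and BMP genes 6 were higher and 9 lower. Bmp2 had 7.16, 7.89 and 8.87 in the Idh2R140Q/NHD13 spleens, against 5.39, 5.69 and 5.85 in the SCL/LMO1 thymi and differed by 2.32 ± 0.21 (adjusted p = 1.84e-06). Id4, an inhibitor of E proteins, had 6.36, 8.19 and 9.29 in Idh2R140Q/NHD13 spleens, against 3.72, 4.63 and 6.26 in SCL/LMO1 thymi and differed by 3.33 ± 0.43 (adjusted p = 5.29e-05), while its relative Id3 fell by 1.55. Bmp2 and Id4 were above the SCL/LMO1 thymi in each spleen, but the wild-type mean of Id4 was 7.63, within the range of the spleens. Tgfb1 (1.14 ± 0.21) and its co-receptor Eng (0.91 ± 0.18) were higher too.

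Transcription factors of the ETS, RUNX and Ikaros families fell more often than they rose: 8 of 26 fell and 1 rose. Ets2 had 8.73, 9.30 and 9.75 in the Idh2R140Q/NHD13 spleens, against 10.86, 11.79 and 12.52 in the SCL/LMO1 thymi and differed by -2.58 ± 0.25 (adjusted p = 2.82e-06). Runx1 had 7.74, 8.31 and 9.58 in Idh2R140Q/NHD13 spleens, against 9.76, 10.43 and 10.98 in SCL/LMO1 thymi and differed by -1.84 ± 0.32 (adjusted p = 0.000616). Both were lower in all spleens than in any SCL/LMO1 thymus. Runx2, the family member known from bone, went the other way with 8.23, 9.87 and 11.76 in the Idh2R140Q/NHD13 spleens, against 4.89, 6.67 and 9.81 in the SCL/LMO1 thymi, a difference of 3.09 ± 0.66 (adjusted p = 0.00304), and overlapped. Ikzf1 (-0.73 ± 0.16) and Ikzf2 (-2.30 ± 0.70) fell beside Ikzf3, though the call of Ikzf2 ended without mouse 531 or SCL/LMO1 mouse 6889/1 (adjusted p = 0.0503 and 0.0571). Nuclear receptors had 6 higher and 5 lower of 35 (3 higher without SCL/LMO1 mouse 6466/4 or 7114/1), with Thra, a thyroid hormone receptor (1.10 ± 0.22), up and the mineralocorticoid receptor Nr3c2 (-1.20 ± 0.25) and Nr2c2 (-0.64 ± 0.12) down.

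The list of T-ALL driver and suppressor genes had 6 higher and 8 lower of 41. Mycn had 6.23, 7.51 and 10.02 in Idh2R140Q/NHD13 spleens, against 4.62, 4.88 and 6.25 in SCL/LMO1 thymi and differed by 2.66 ± 0.54 (adjusted p = 0.002). Cdkn2a, which encodes the tumour suppressors p16 and p19 and is often lost in T-ALL, had 5.51, 8.75 and 11.56 in the Idh2R140Q/NHD13 spleens, against 4.21, 4.77 and 6.80 in the SCL/LMO1 thymi and differed by 3.47 ± 0.72 (adjusted p = 0.00251). Both genes overlapped, with a wide range among the spleens. Lmo1, a transgene of the SCL/LMO1 mice, was lower by 3.61 in the spleens. It had 5.77 to 8.46 in Idh2R140Q/NHD13 spleens, 7.37 to 11.45 in SCL/LMO1 thymi and 5.79 to 7.27 in wild-type thymi. The leukemias overlapped, since thymus 6889/1 (7.37) lay below spleens 570 (8.46) and 546 with 550 (7.48), and it was just above the highest wild-type thymus. The level of Lmo1 therefore does not check the label of every sample.

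Polycomb and BAF subunits, which compact and open chromatin, were lower in 10 of 35 cases and higher in 2 (median -0.31). Mtf2, an accessory subunit that recruits Polycomb complex 2, had 9.87, 10.65 and 11.17 in Idh2R140Q/NHD13 spleens, against 12.14, 12.48 and 13.08 in SCL/LMO1 thymi and differed by -1.87 ± 0.19 (adjusted p = 4.45e-06). Phc1, a subunit of complex 1, had 7.43, 7.76 and 8.36 in the Idh2R140Q/NHD13 spleens, against 8.97, 9.10 and 9.28 in the SCL/LMO1 thymi and differed by -1.27 ± 0.17 (adjusted p = 8.64e-05). Smarcc2, a BAF scaffold, had 7.72, 8.21 and 8.49 in Idh2R140Q/NHD13 spleens, against 8.63, 9.12 and 9.52 in SCL/LMO1 thymi and differed by -0.98 ± 0.15 (adjusted p = 0.000188). All 3 were separated without overlap. Brd9 fell by 0.66, and the members that rose were Pcgf5 (0.63 ± 0.21) and Yaf2 (0.54 ± 0.18), each a call that ended without any of 9 of the 14 samples (adjusted p up to 0.0967 and 0.103). As the mean of its probe sets Pcgf5 differed by -0.02. DNA repair genes had 2 higher and 5 lower of 42, all by less than 2-fold. These were 4.76% and 11.9%, beside 11.7% and 12.0% of all genes. Ercc1, of the nuclease that cuts beside lesions, had 9.11, 9.27 and 9.43 in the Idh2R140Q/NHD13 spleens, against 9.84, 9.90 and 10.24 in the SCL/LMO1 thymi and differed by -0.70 ± 0.08 (adjusted p = 1.41e-05), and the kinase Chek2 rose by 0.96 ± 0.23. Imprinted genes had 4 higher and 3 lower of 30 (1 lower without mice 546 with 550 or 559 or SCL/LMO1 mice 6466/4 or 6883/2): Phlda2 (1.43 ± 0.27), Meg3 (1.21 ± 0.34) and Mest (0.86 ± 0.23) rose, and the matrix proteoglycan Dcn (-3.62 ± 0.67) fell.

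Recycling pathways had more members called higher than lower, beside 11.7% higher and 12.0% lower over all genes. Their medians were small: 0.114 (autophagy), 0.206 (lysosome) and 0.085 (proteasome and ubiquitin), beside 0.025 over all genes. Autophagy had 11 of 34 higher and 3 lower (1 lower without any of spleens 525, 531, 559 and 570 or of thymi 7114/3, 6889/1, 6883/2 and 7114/1). Gabarapl1, a ubiquitin-like protein of autophagosomes, had 10.27, 10.44 and 12.74 in Idh2R140Q/NHD13 spleens, against 7.40, 8.16 and 8.90 in SCL/LMO1 thymi and differed by 2.54 ± 0.36 (adjusted p = 0.000121). Optn, a receptor that brings mitochondria to autophagosomes, had 6.69, 8.81 and 9.72 in the Idh2R140Q/NHD13 spleens, against 5.36, 5.74 and 6.00 in the SCL/LMO1 thymi and differed by 2.94 ± 0.42 (adjusted p = 0.000137). Wipi1 (2.08 ± 0.25) rose, and Atg16l2 (-1.53 ± 0.31) fell. All 4 were disjoint between the leukemias. The wild-type means of Gabarapl1 (10.54), Optn (7.55) and Wipi1 (8.1) lay within the range of the spleens, so the SCL/LMO1 thymi were the low group for them. Lysosomal genes had 9 higher and 4 lower of 33 (2 lower without SCL/LMO1 mouse 7114/3 or 6883/2), with the proton pump subunits Atp6v1b2 (1.05 ± 0.16) and Atp6v0d1 (0.64 ± 0.13) up and the protease Ctsl (-1.06 ± 0.27) down. The proteasome and ubiquitin list had 7 higher and 2 lower of 31. Ube2o, a ubiquitin enzyme that remodels the proteome of reticulocytes, had 8.01, 9.84 and 10.45 in Idh2R140Q/NHD13 spleens, against 7.13, 7.33 and 7.46 in SCL/LMO1 thymi and differed by 2.17 ± 0.32 (adjusted p = 0.000152), without overlap.

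Matrix genes fell more often than they rose, with 12 of 39 lower and 3 higher (5 higher without SCL/LMO1 mouse 7114/3), although the median of the list was 0.36. Periostin, Postn, had 6.03, 6.35 and 8.04 in the Idh2R140Q/NHD13 spleens, against 8.41, 9.10 and 9.68 in the SCL/LMO1 thymi and differed by -2.50 ± 0.30 (adjusted p = 2.69e-05). Col14a1, a collagen of fibrils, rose, with 8.83, 9.27 and 9.63 in Idh2R140Q/NHD13 spleens, against 6.34, 7.40 and 7.68 in SCL/LMO1 thymi and a difference of 2.04 ± 0.28 (adjusted p = 8.44e-05). Both were disjoint. The metalloprotease Adam19 (-3.09 ± 0.53) and the gelatinase Mmp2 (-1.14 ± 0.19) fell. The adipocyte marker mean was 5.34 to 5.88 in 7 spleens and 10.04 in mouse 555, against 7.22 to 9.25 in the SCL/LMO1 thymi. Of 5 adipocyte markers 3 were called lower. The spleen stroma mean was 6.57 to 7.47 in the spleens, against 5.78 to 6.57 in the SCL/LMO1 thymi. Of its 5 markers 4 were called higher and 1 lower, beside 11.7% and 12.0% of all genes. At least 2-fold were 2 of the higher markers and the lower one. The part of stroma in the matrix genes was not tested.

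**Figure D4:**
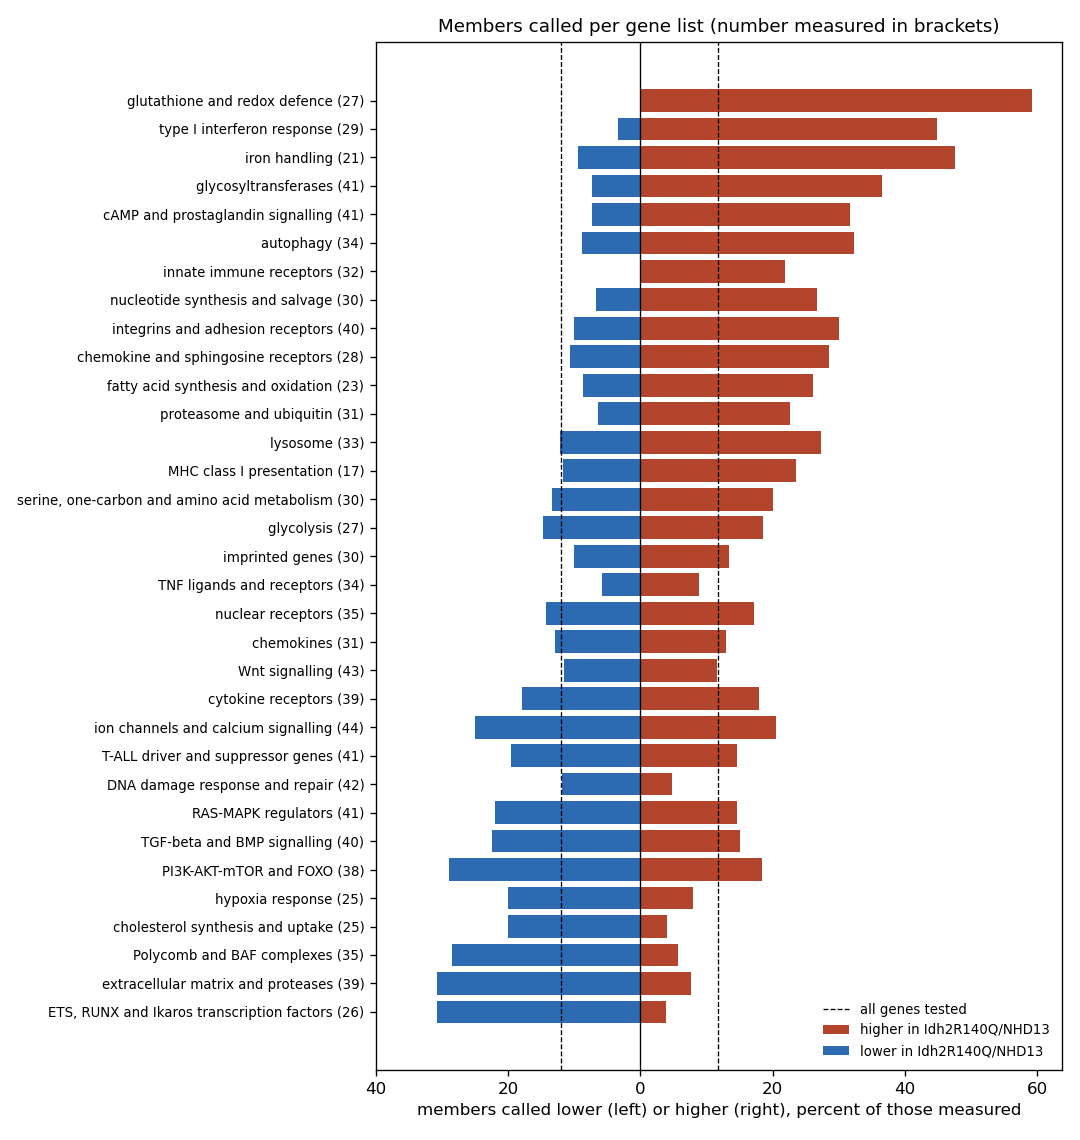
Percent of the measured members of 33 of the 34 gene lists called higher (right bars) or lower (left bars) in Idh2R140Q/NHD13 spleens than in SCL/LMO1 thymi, with dashed lines at 11.7% and 12.0%, the shares over all genes. The redox, interferon and iron lists have the longest bars to the right and the ETS, RUNX and Ikaros list and the matrix list the longest to the left.

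The difference did not sit on single chromosomes: over all genes of each chromosome its median was between 0.00 and 0.06. Single samples, however, had shifts of whole chromosomes. Each sample was set against the mean of the wild-type thymi, gene by gene, and the median over a chromosome's genes was taken, leaving out dim genes. Of 280 pairs of a sample and a chromosome, 16 lay more than 0.15 from that sample's own median over chromosomes (a limit chosen after seeing the data), and the other pairs lay between -0.13 and 0.10. Chromosome 15 made up 8 of the 16. Its median was 0.26 to 0.37 in 5 Idh2R140Q/NHD13 samples (mice 525, 526, 546 with 550, 555 and 559) and 3 SCL/LMO1 samples (7114/3, 6883/2 and 7114/1), and -0.04 to 0.11 in the other 6. With dim genes kept the same samples had 0.13 to 0.24 and the others 0.05 to 0.11. Samples past the limit were thus found in both leukemias. In Idh2R140Q/NHD13 samples the others were chromosome 8 in mice 525 (0.32) and 559 (0.28), chromosome 11 in mouse 525 (0.25), chromosome 1 in mouse 526 (0.28), and chromosomes 4 (0.20), 13 (-0.34) and 16 (-0.35) in mouse 555. In SCL/LMO1 samples the other was chromosome 14 in mouse 7114/1 (0.24). With dim genes kept these values were nearer 0: chromosome 8 had 0.24 in mouse 525 and 0.23 in mouse 559, chromosome 11 had 0.23 in mouse 525, chromosome 1 had 0.12 in mouse 526, and chromosome 14 had 0.11 in mouse 7114/1. In mouse 555 chromosomes 4, 13 and 16 then had 0.12, -0.12 and -0.13. DNA copy number was not measured here.

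**Figure D5:**
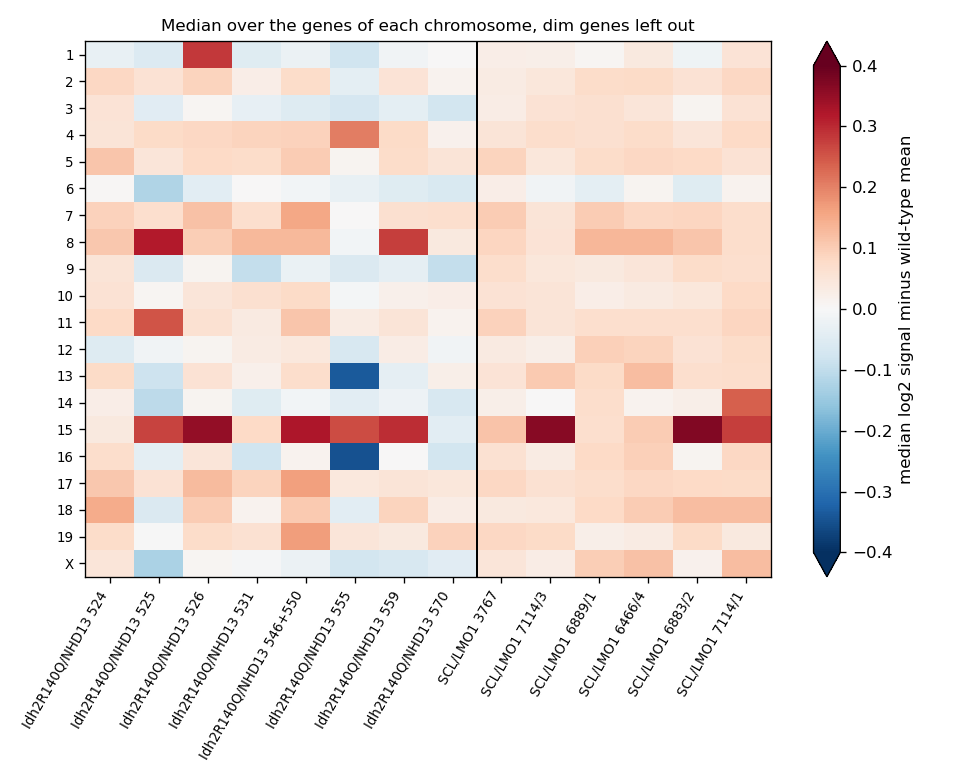
Median log2 signal minus the wild-type mean over the genes of each chromosome (rows) in 8 Idh2R140Q/NHD13 and 6 SCL/LMO1 samples (columns), dim genes left out. Chromosome 15 is red in 5 samples of the first group and 3 of the second, and mouse 555 has the 2 blue cells, on chromosomes 13 and 16.

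Promoter windows of the called genes differed most in the ETS letters CCGGAAG, counted on either strand. They were in 10.9% of 1836 promoters of higher genes (95% exact interval 9.50 to 12.41%), in 18.8% of 1785 promoters of lower genes (16.98 to 20.66%), and in 13.8% of all 14516. Among genes changed at least 2-fold the shares were 7.88% and 9.79%, so the high share in lower genes was held by those that changed less. GATA letters, AGATAA, were in 7.90% of higher, 6.05% of lower and 8.01% of all promoters, and in 9.74% of those at least 2-fold higher. AP-1 letters, TGACTCA, were in 4.36%, 2.80% and 4.31%. The intervals cover counting error only and treat genes as independent, which they are not.

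For some genes the probe set decides the direction. Of 9651 genes with several probe sets, 101 had one called higher and another called lower. Outside the globins the widest gap was at the aspartic protease Ctse, whose brightest probe set was higher by 3.91 ± 0.30 (SE) and another lower by 2.42 ± 0.39, and the next at H2-D1, with 3.23 ± 0.26 and -1.99 ± 0.57. Of the 101 genes, 34 are counted above as higher, 26 as lower and 41 as not called.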

How the data were processed

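Total RNA had been extracted with TRIzol and labelled with biotin for 1-colour Affymetrix arrays, per the labels' protocols. The deposited values are log2 signals, and the sources used here do not give how the authors summarised probes or normalized arrays. No further scaling was applied, as the medians of the arrays were 5.891 to 6.01. Dim values cannot be told from background without detection calls, and folds against them are understated. Another 36 columns carried only array numbers and were not used.

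Of 45101 probe sets 38089 had 1 symbol. The brightest, by mean over 18 arrays, stood for each of 20670 genes, and 18301 genes were matched to RefSeq by Entrez identifier for current symbols, chromosomes and promoters (GRCm38.p6, first listed start). The fit used limma 3.58.1 in R 4.3.3 on 17 samples in 3 groups, mice 546 and 550 averaged, with moderated variances and p-values adjusted by Benjamini-Hochberg over the 20670 genes; Python 3.11.15 made the summaries. Genes were called at an adjusted p under 0.05. Leaving out dim genes means keeping the 13850 that exceeded their array's 40th percentile in 3 or more arrays. On simulated data of the same size the fit called 72 of 100 genes shifted by 1 log2 unit, 95 of 100 shifted by 3 and 10 of 20470 unshifted.

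The members and lists were chosen with earlier results of these data known. The genes named are, first, the 15 largest rises and falls outside the lineage lists whose groups did not overlap and whose brighter group averaged above 6.706, the median gene. They are next up to 4 called members a list with the smallest adjusted p, the first that went against the majority, some of those with the widest range among spleens, and the 2 widest gaps between probe sets. Where all called members of one direction are given they include others. Cd163, Aco1, Usp18, Foxo1, Foxo3, Eif4ebp1, Ptger2, Ptgir, Id3 and Ikzf1 were named after their values were seen. The labels name single mice, and p-values measure the spread between them. One of the 34 lists and some single genes are not reported here. Other settings are given in the closing section.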

Additional observations from a re-analysis of the deposited data

Results flagged for a closer look

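A sample was looked at again where its gap to the nearest other sample of its group was a large share of the group's range (Dixon's 95% limit). Of 390 groups of values tested, 32 single values passed it, and chance flags about 1 in 20 groups. The genes included some chosen for their wide range among the spleens, so the number cannot be read against chance. Mouse 555 held 13 of the 32. It was the highest Idh2R140Q/NHD13 spleen for Ldhb (12.39, next 8.39), Bcat1 (6.18, next 4.24), Itgb8 (10.29, next 3.62), P4ha2 (6.35), Nr3c2 (6.87), Gabarapl1 (12.74), Ccl8 (6.83), Dcn (10.89) and Postn (8.04), and the lowest for St3gal4 (7.61) and Cd47 (12.00). Its adipocyte marker mean was 10.04 (next 5.88) and its thymic epithelium mean 6.19 (next 5.64). Adipocyte and thymic epithelium markers, Xist and Y-linked genes moved with these values in this sample, and their part was not tested.

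Other spleens that stood out were mouse 526 for Atp8a2 (7.18) and Il12rb2 (4.98), mouse 524 for Gpx1 (13.17, the lowest), mouse 531 for Pkm (8.72, the lowest), mouse 570 for Fads2 (8.29, the lowest), mouse 525 for H2-D1 (11.64, the lowest), and mice 546 with 550 for Tgfb1 (9.06, the highest).

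Among SCL/LMO1 thymi, mouse 3767 was the highest for Aldh1a7 (5.92), Il6st (11.12), Oasl2 (6.90) and the thymic epithelium mean (8.96), and the lowest for the spleen stroma mean (5.78). Mouse 6889/1 was the highest for Prdx6 (10.97), Mest (6.04) and Atg16l2 (8.93), mouse 7114/1 for Dusp10 (11.58), mouse 7114/3 for Gpx1 (12.66) and mouse 6883/2 for Ada (10.99). Mouse 6466/4 was the lowest for Pik3cb (4.99).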

How the results depend on the processing

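Genes called numbered 3935 to 5346 over the settings that kept the threshold and all leukemia samples (quantile normalization, centred medians, dim genes left out, mean of probe sets, other moderation, leukemias alone, 18 arrays separately, 7114/1 with 7114/3 averaged, sex as a covariate), with no call of the fit turned except 35 under the mean of probe sets. Leaving out single samples gave 1954 to 2743 higher and 2108 to 2767 lower genes, and 1092 to 1260 and 860 to 1101 at least 2-fold. At an adjusted p of 0.01, 1346 genes were higher and 1433 lower. Groups that did not overlap numbered 978 and 817, or 685 and 444 at least 2-fold. Over all lists 230 members were higher and 165 lower, 150 and 94 at 0.01, 97 and 45 by non-overlap, and 197 to 233 and 133 to 192 without single samples. Of 181 called genes in the text, 167 kept the call in all settings other than the stricter threshold and non-overlap. Pcgf5 reversed to -0.0165 as the mean of its probe sets, and H2-D1, Ctsl, Meg3, Prdx6, Sod1 and Aco1 lost the call there (adjusted p = 0.287, 0.204, 0.0527, 0.0742, 0.0842 and 0.0601); the cause was not tested. With dim genes left out, chromosome medians moved to -0.0600 (chromosome 3), -0.0502 (9), -0.0513 (12), -0.0722 (13), -0.0786 (14), -0.0910 (16) and -0.0685 (X). Among genes at least 2-fold higher, promoter shares were 9.74% for AGATAA, 8.21% for CACGTG, 7.88% for CCGGAAG, 5.80% for TGACTCA and 33.5% for CCAAT; among those at least 2-fold lower, 17.8% for CAGCTG, 7.68% for CACGTG, 9.79% for CCGGAAG and 1.81% for CTTTGAT. Low signals limit the folds against dim groups. No paired analysis was possible because the labels name different mice in each group and share no replicate number.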
